A study of Mus musculus with 11 samples.

Results

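The genes of sterol and fatty acid synthesis were followed in primary microglia of the mouse, the brain's own immune cells, kept alone or beside neurons. The 32 genes were chosen by symbol as enzymes and SREBP regulators of cholesterol and fatty acid synthesis, with earlier results of these data known. They are 32 of the 16934 genes in the count table, and 31 passed the filter on low counts and were tested. The remaining member, Idi1, an isomerase of the mevalonate pathway, did not pass it. The study asked how microglia respond to neurons that carry fibrils of α-synuclein, which forms the aggregates of Parkinson's disease, and its title names tunneling nanotubes, thin membrane bridges between cells.

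The data are 11 libraries of 3′ mRNA sequencing, which counts reads at the ends of transcripts. In the first group (4 libraries), microglia had been kept for 6 h with cortical neurons, grown for 14 days in vitro, that had taken up Atto488-labelled α-synuclein fibrils during 16 h at 0.1 µM and were then washed. In the second group (3 libraries), microglia had been kept for 6 h with cortical neurons that received no fibrils. In the third group (4 libraries), microglia were kept without neurons. In every group the microglia came from C57BL/6 pups aged 0 to 3 days after birth and had been cultured for 7 to 10 days in medium with fetal calf serum, with no passage. The labels give no genetic change in any group. How microglia were separated from neurons and which medium the co-cultures had are not stated. Nor is it stated that libraries within a group are separate cultures or animals. The p-values therefore reflect the spread among these samples alone, and that spread may be technical.

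Cholesterol is built from acetyl-CoA through mevalonate, squalene and lanosterol, and fatty acids are built from the same acetyl-CoA by acetyl-CoA carboxylase and fatty acid synthase, then desaturated and elongated. The SREBP transcription factors, encoded by Srebf1 and Srebf2, switch on the enzymes of both pathways. When membranes are rich in sterol, INSIG proteins hold the SREBP escort SCAP in the endoplasmic reticulum, and when sterol is low, SCAP carries SREBP to the Golgi, where it is cleaved and released to the nucleus. In the brain most cholesterol is made locally, and microglia also take up lipid from dying cells and myelin.

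SREBP binds sterol regulatory elements, usually beside NF-Y, which binds CCAAT boxes, so promoters were searched for both. They are shown for Fasn, Acaca, Hmgcs1 and Msmo1, the members with a promoter in the RefSeq table that were among the 3 smallest p-values of a comparison. Each runs from 250 bases before a RefSeq start to 50 after it, 5′ to 3′ on the strand of the gene, in build GRCm38.p6. A RefSeq start can differ from the GENCODE gene start used for gene coordinates below, and the Acaca window lies inside the GENCODE gene. Capitals mark CCAAT, its reverse complement, and a sterol regulatory element written TCACNCCAC or its reverse complement. The Fasn promoter lies at chr11:120824498-120824797 on the minus strand, that of Acaca at chr11:84195188-84195487 on the plus strand, that of Hmgcs1 at chr13:119690101-119690400 on the plus strand and that of Msmo1 at chr8:64733529-64733828 on the minus strand.
Fasn: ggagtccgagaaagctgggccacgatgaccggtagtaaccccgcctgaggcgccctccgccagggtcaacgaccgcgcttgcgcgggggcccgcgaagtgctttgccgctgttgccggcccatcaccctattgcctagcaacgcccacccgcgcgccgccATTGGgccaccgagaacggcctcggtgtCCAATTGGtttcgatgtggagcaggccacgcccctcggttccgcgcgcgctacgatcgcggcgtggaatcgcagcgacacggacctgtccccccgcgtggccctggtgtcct
Acaca: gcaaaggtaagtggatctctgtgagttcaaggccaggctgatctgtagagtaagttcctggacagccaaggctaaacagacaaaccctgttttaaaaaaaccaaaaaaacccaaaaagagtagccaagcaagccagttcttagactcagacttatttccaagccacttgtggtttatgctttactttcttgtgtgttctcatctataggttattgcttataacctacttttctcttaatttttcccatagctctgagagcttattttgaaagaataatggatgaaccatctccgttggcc
Hmgcs1: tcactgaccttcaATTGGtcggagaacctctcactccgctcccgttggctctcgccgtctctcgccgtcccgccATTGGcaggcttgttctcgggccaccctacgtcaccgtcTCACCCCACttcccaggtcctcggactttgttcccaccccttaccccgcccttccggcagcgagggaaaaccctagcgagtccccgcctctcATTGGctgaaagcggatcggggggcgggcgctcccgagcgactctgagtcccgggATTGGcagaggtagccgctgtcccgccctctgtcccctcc
Msmo1: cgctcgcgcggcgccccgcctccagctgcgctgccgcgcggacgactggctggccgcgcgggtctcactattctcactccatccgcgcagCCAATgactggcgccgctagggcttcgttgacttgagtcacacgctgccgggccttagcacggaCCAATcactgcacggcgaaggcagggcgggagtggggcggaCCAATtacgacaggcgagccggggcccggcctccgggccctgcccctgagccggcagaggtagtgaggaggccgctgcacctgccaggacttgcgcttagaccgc

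The Fasn window holds 3 CCAAT boxes, of which a pair overlaps, the Hmgcs1 window holds 4 CCAAT boxes and 1 sterol regulatory element, and the Msmo1 window holds 3 CCAAT boxes. The Acaca window holds neither motif. On either strand, CCAAT is present in the windows of 20 of the 25 members with a promoter in the table (80.0%), against 41.1% of all 27025 genes with one. A gene was counted if any of its windows held the letters, with 32851 windows over all genes. All genes here include those not tested, and the number of windows per gene was not matched. At least 2 CCAAT boxes are present for 11 of the 25, against 13.3% of all genes. The letters TCACNCCAC are present for 1 of the 25, Hmgcs1, against 1.44% of all genes, and the E-box CACGTG for 6 of the 25, against 8.09% of all genes. These matches describe the letters in the window and not binding. Fads1, Fdft1, Fdps, Scd1, Scd2, Sqle and Stard4 have no promoter in the table.

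Library totals lay between 8253070 and 14844071 counts with fibril-loaded neurons, between 10925771 and 16802451 with untreated neurons, and between 10700940 and 14541179 in microglia alone. The ribosomal RNA precursor Rn45s took a median of 11.5% of counts with fibril-loaded neurons and 11.5% with untreated neurons, against 19.4% in microglia alone. Levels are given as CPM, counts scaled to the TMM-adjusted library total. They are not divided by gene length, so a level is compared between groups and not between genes. A value of 0 CPM allows a level of up to 0.178 to 0.350 CPM, depending on the library (3 counts, counting error only). In bulk RNA, fewer cells of a type and less RNA per cell cannot be told apart. The summed CPM of 12 microglia and macrophage markers lay between 13783 and 19899.7 with fibril-loaded neurons and between 16037.6 and 19782.1 with untreated neurons, against between 12800.5 and 13738.8 in microglia alone, with no marker at 0 throughout a group. Taking both co-cultures together, Cx3cr1 lay between 1204.1 and 2479 CPM, against between 447.13 and 813.5 CPM in microglia alone. The other markers each overlapped microglia alone in this way.

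Most members varied widely between libraries of one group. A count in every library was found for 18 of the 32, and between 24 and 32 were detected in any one. Beside fibril-loaded neurons 6 members (Mvd, Fdps, Sqle, Lss, Acaca and Scd1) had no count in one library and over 100 counts in another, as did 7 beside untreated neurons (Srebf2, Mvk, Mvd, Sc5d, Fasn, Scd1 and Elovl6) and 3 in microglia alone (Sqle, Nsdhl and Scd1). The share of all genes with such gaps was not counted, so these numbers are not read as particular to the members. The biological coefficient of variation, edgeR's measure of the spread between libraries relative to the mean, had a median of 0.868 over the members tested and 0.836 over all genes tested. Among the members it was lowest for Scd2, at 0.335, and highest for Elovl6, at 2.49. The heat map of all 32 members shows these gaps as dark cells, and Scd2 is among the 18 members with a count in every library.

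**Figure D1:**
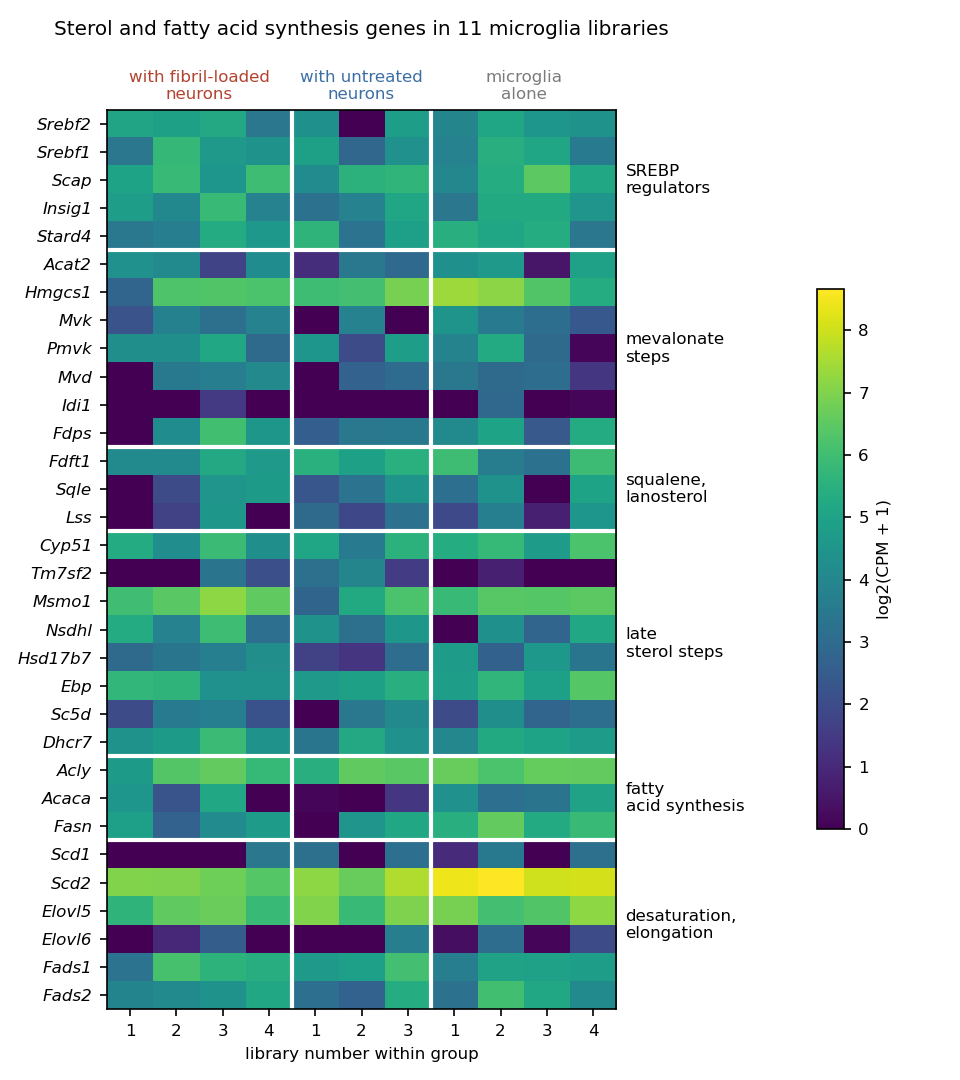
Level of the 32 members as log2(CPM + 1), with libraries in columns by group and genes in rows by role. Scd2 is brighter in the 4 libraries of microglia alone, at 257 to 402 CPM, than in the 7 libraries with neurons, at 81.4 to 198 CPM, and many other rows have dark cells beside bright ones within a group.

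Scd2 was the only member that passed the edgeR test, with fibril-loaded neurons against microglia alone. It encodes a stearoyl-CoA desaturase, which puts the first double bond into saturated fatty acids and is the main such enzyme of the mouse brain. It was at 129, 126, 107 and 81.4 CPM in the 4 libraries with fibril-loaded neurons, 143, 99.7 and 198 CPM in the 3 with untreated neurons, and 345, 402, 257 and 273 CPM in the 4 of microglia alone. The 2 co-culture groups overlapped each other, and every co-culture library lay below every library of microglia alone. The share of all genes separated in this way from both co-cultures at once was not counted. The means were 111 ± 21.8 CPM beside fibril-loaded neurons (SD, n = 4) and 147 ± 49.1 CPM beside untreated neurons (n = 3), against 319 ± 67.1 CPM in microglia alone (n = 4). Scd2 lies on chromosome 19 from 44293674 to 44306864, on the plus strand (mm10), and no window of 50 bases in the last 300 bases of its transcripts matched another gene's transcript.

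Beside fibril-loaded neurons, Scd2 was 2.88-fold lower than in microglia alone (log2 fold change -1.53, SE 0.30, 95% interval -2.14 to -0.91, edgeR adjusted p = 0.0193). Beside untreated neurons its log2 fold change was -1.12 (SE 0.32, 95% interval -1.79 to -0.45), which did not pass the test (edgeR adjusted p = 0.144, unadjusted p = 0.0022). DESeq2 called it lower in both comparisons, with adjusted p = 2.08e-05 beside fibril-loaded neurons and 0.0133 beside untreated neurons, whereas limma on the authors' normalized table called it in neither, with adjusted p = 0.277 beside fibril-loaded and 0.365 beside untreated neurons. Both comparisons use the same 4 libraries of microglia alone. Between fibril-loaded and untreated neurons the log2 fold change of Scd2 was -0.41 (95% interval -1.05 to 0.24, edgeR adjusted p = 1), so a difference between the co-cultures in either direction was not resolved.

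The call beside fibril-loaded neurons did not hold in every fit that left out a library. On leaving out each of its 8 libraries in turn, the log2 fold change of Scd2 stayed between -1.61 and -1.38 and the edgeR adjusted p lay between 0.0228 and 0.0878. It passed in 4 of the 8 fits and was lost without library 1 of microglia alone (0.0559), library 2 of microglia alone (0.0755), library 3 beside fibril-loaded neurons (0.0878) or library 4 beside fibril-loaded neurons (0.0873). When the library with the fewest genes was dropped from each group, a choice made after the data were seen, it was -1.56 with an edgeR adjusted p of 0.0825. With library totals computed without Rn45s it was -1.52 with an edgeR adjusted p of 0.0186. Over all the alternatives run, the adjusted p of Scd2 lay between 2.08e-05 (DESeq2) and 0.277 (limma).

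Markers of other cell types that could be in the cultures were set beside Scd2. The summed CPM of 10 oligodendrocyte lineage markers lay between 163 and 356 with fibril-loaded neurons, between 273 and 329 with untreated neurons and between 184 and 305 in microglia alone, so all 3 ranges overlapped. Among these markers only Cspg4 separated both co-cultures from microglia alone, at 47.4 to 112.8 CPM against 0 to 37.0 CPM. The sum of 10 astrocyte markers lay between 20.7 and 110 CPM with fibril-loaded neurons, between 24.5 and 104 CPM with untreated neurons, and between 21.8 and 56.9 CPM in microglia alone. Gjb6 was at 0 throughout all 3 groups, Gja1 throughout the untreated group, and Gfap and Aldh1l1 throughout microglia alone. The sum of 12 neuron markers, most of it Basp1, a growth-cone protein gene, lay between 777 and 1176 CPM with fibril-loaded neurons and between 610 and 876 CPM with untreated neurons, against between 1274 and 1531 CPM in microglia alone. Snap25 was at 0 in all 11 libraries. Nefm was at 0 throughout the untreated group and microglia alone, and Stmn2, Gap43 and Syn1 throughout the untreated group. The neuron sum was lower in the co-cultures, as Scd2 was. Taking both co-cultures together, Basp1 lay between 580 and 1139 CPM, against between 1144 and 1469 CPM in microglia alone. Dcx lay between 0 and 6.17 CPM, against between 15.9 and 66.5 CPM, and Tubb3 between 0 and 8.40 CPM, against between 9.39 and 37.7 CPM. No other neuron marker separated the co-cultures from microglia alone. The part of these other cell types in the result was not tested. The 6 fibroblast and mural markers in the table summed to at most 5.14 CPM with fibril-loaded neurons, 2.69 CPM with untreated neurons and 23.4 CPM in microglia alone.

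**Figure D2:**
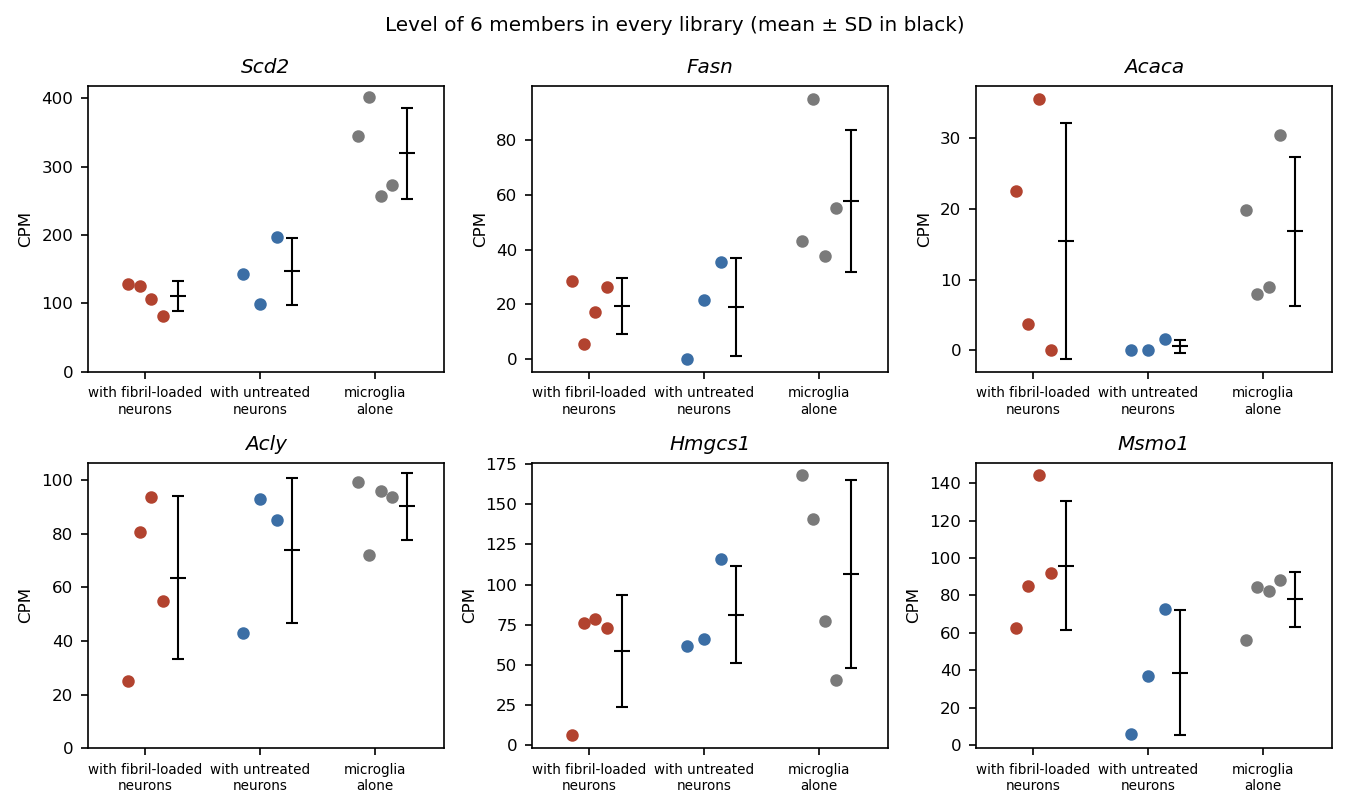
CPM of 6 members in each library (dots), by group, with the group mean ± SD in black. Scd2 and Fasn are lower in all 7 libraries with neurons than in all 4 of microglia alone, Acaca is near 0 in the 3 libraries with untreated neurons, and the groups overlap for Acly and Hmgcs1.

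Among the 31 members tested with fibril-loaded neurons against microglia alone, Scd2 was the 1 called lower and none was called higher by edgeR, while 0.0532% of all 11276 genes tested were called lower and 0.266% higher. Scd2 was also the 1 member with an unadjusted p below 0.05, which 3.89% of all genes reached on the lower side and 4.25% on the higher side. DESeq2 called Scd2 as well, and limma called 0 members. The log2 fold change was above 0 for 11 members and below 0 for 20, with a median of -0.28 over the members tested, against -0.04 over all genes, of which 52.1% were below 0. The CPM ranges did not overlap for Fasn and Scd2, both lower, where 2.92% of all genes were lower and 2.7% higher in this way.

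With untreated neurons against microglia alone, edgeR called 0 of the 31 members, while it called 0.461% of all genes higher and 0.177% lower. An unadjusted p below 0.05 was reached by 2 members, Acaca and Scd2, both lower, as by 5.67% of all genes on the lower and 4.66% on the higher side. DESeq2 called both, and limma called 0 members. The log2 fold change was above 0 for 9 members and below 0 for 22, with a median of -0.42 over the members tested, against -0.05 over all genes. The ranges did not overlap for Acaca, Fasn and Scd2, all lower, and for Tm7sf2, higher, where 5.45% of all genes were lower and 4.9% higher in this way.

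With fibril-loaded against untreated neurons, edgeR called 0 of the 31 members and 0% of all genes. An unadjusted p below 0.05 was reached by 2 members, Acaca and Msmo1, both higher beside fibril-loaded neurons, as by 2.64% of all genes in that direction and 1.3% in the other. DESeq2 and limma each called 0 members. The log2 fold change was above 0 for 21 members and below 0 for 10, with a median of 0.16 over the members tested, against 0 over all genes. No member had ranges that did not overlap, where 2.39% of all genes were higher and 2.3% lower in this way. On leaving out each library in turn, between 8 and 16 members were below 0.

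**Figure D3:**
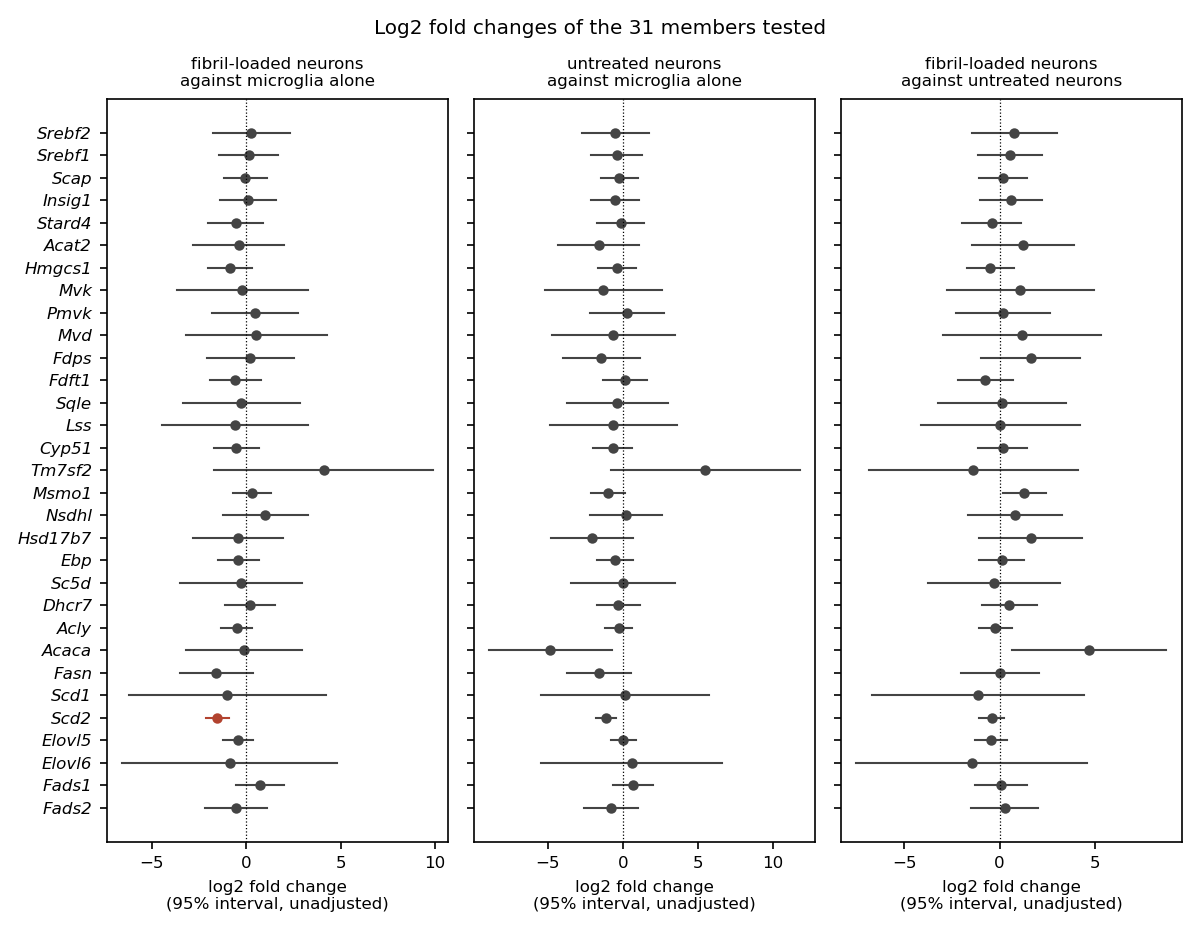
Log2 fold changes of the 31 members tested (dots) with 95% intervals (lines, not adjusted for the number of genes), one panel per comparison, the first-named group over the other. Scd2, in red in the left panel at -1.53, is the member that passed the edgeR test, and most intervals span 0.

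The regulators did not pass the test in any comparison. Scap, the escort of SREBP, was at 31.5, 56.9, 22.3 and 61.6 CPM with fibril-loaded neurons, 17.2, 46.5 and 49.5 CPM with untreated neurons, and 15.2, 40.4, 88.4 and 34.6 CPM in microglia alone. Stard4, which carries cholesterol between membranes in the cytosol, was at 10.1, 12.1, 39.3 and 23.4 CPM with fibril-loaded neurons, 48.0, 8.87 and 28.4 CPM with untreated neurons, and 43.4, 33.4, 39.8 and 9.70 CPM in microglia alone. The 3 groups overlapped for both genes. Srebf2, whose protein mainly drives sterol genes, averaged 26.99 ± 11.9 CPM with fibril-loaded neurons (SD, n = 4), 15.7 ± 14.2 CPM with untreated neurons (n = 3) and 22.3 ± 7.72 CPM in microglia alone (n = 4). Srebf1, whose protein mainly drives fatty acid genes, averaged 26.9 ± 18.9 CPM with fibril-loaded neurons, 18.4 ± 11.4 CPM with untreated neurons and 24.6 ± 15.3 CPM in microglia alone. Insig1, which retains SCAP and is itself a target of SREBP, averaged 28.4 ± 20.5 CPM with fibril-loaded neurons, 18.4 ± 13.3 CPM with untreated neurons and 26.6 ± 13.3 CPM in microglia alone. In each case the difference between group means was smaller than at least one of the SDs. Exons of Srebf1 overlap those of Rai1 on the opposite strand and those of Scap overlap 5830462I19Rik, and the use of strand in counting is not stated, so reads of these pairs cannot be told apart.

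The enzymes of the mevalonate part make the isoprenoid units from acetyl-CoA. Hmgcs1, the cytosolic HMG-CoA synthase, was at 6.04, 76.1, 78.5 and 72.7 CPM with fibril-loaded neurons, 61.7, 65.8 and 116 CPM with untreated neurons, and 168, 141, 77.4 and 40.2 CPM in microglia alone. Library 1 beside fibril-loaded neurons stood far below the other three of its group, and the groups overlapped. Its log2 fold change with fibril-loaded neurons against microglia alone was -0.87 (SE 0.55, edgeR adjusted p = 0.867). On leaving out each library in turn it lay between -1.14 and -0.49, at -0.49 without library 1 beside fibril-loaded neurons and -0.55 without library 1 of microglia alone, and no such fit passed. Hmgcs1 lies on chromosome 13 from 119690379 to 119708260 (mm10, plus strand), where its exons overlap Gm48342 on the opposite strand. Fdps, which makes farnesyl pyrophosphate, was at 0, 17.3, 65.2 and 22.7 CPM with fibril-loaded neurons, 4.96, 9.95 and 10.3 CPM with untreated neurons, and 16.3, 31.2, 4.34 and 39.2 CPM in microglia alone. Of the 50-base windows at its 3′ ends 84.9% matched another gene's transcript as well, so the level of Fdps is uncertain.

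The other mevalonate genes tested did not pass either. Acat2, the cytosolic acetoacetyl-CoA thiolase, averaged 14.1 ± 7.89 CPM with fibril-loaded neurons, 6.01 ± 4.50 CPM with untreated neurons and 18.6 ± 12.9 CPM in microglia alone, and it shares 9.23% of its 3′ windows with other genes. Mvk, the mevalonate kinase, averaged 9.46 ± 4.50 CPM with fibril-loaded neurons, 4.45 ± 7.71 CPM with untreated neurons and 11.01 ± 7.26 CPM in microglia alone, and Pmvk, the phosphomevalonate kinase, averaged 20.1 ± 11.8 CPM with fibril-loaded neurons, 17.7 ± 13.1 CPM with untreated neurons and 14.8 ± 16.7 CPM in microglia alone. Mvd, the decarboxylase, averaged 9.58 ± 6.80 CPM with fibril-loaded neurons, 4.24 ± 3.76 CPM with untreated neurons and 6.59 ± 3.59 CPM in microglia alone. The groups overlapped for each of these genes. Idi1 had a count in 1 library with fibril-loaded neurons (1.78 CPM), in none with untreated neurons and in 2 of microglia alone (6.64 and 0.0836 CPM), and 44.2% of its 3′ windows matched other genes.

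The squalene and lanosterol steps commit isoprenoids to sterols. Fdft1, the squalene synthase, was at 16.5, 16.1, 36.7 and 24.6 CPM with fibril-loaded neurons, 43.9, 29.5 and 43.9 CPM with untreated neurons, and 62.1, 11.4, 8.68 and 59.5 CPM in microglia alone. Its exons overlap those of Ctsb on the opposite strand, so its level is uncertain. Sqle, the squalene epoxidase, was at 0, 2.92, 21.9 and 25.1 CPM with fibril-loaded neurons, 3.93, 8.78 and 21.5 CPM with untreated neurons, and 7.91, 20.1, 0 and 31.5 CPM in microglia alone. Lss, the lanosterol synthase, whose exons overlap 4930483K19Rik on the opposite strand, averaged 6.23 ± 11.03 CPM with fibril-loaded neurons, 6.06 ± 3.01 CPM with untreated neurons and 9.50 ± 9.86 CPM in microglia alone. The groups overlapped for all 3 genes, and none passed the test.

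The late sterol steps turn lanosterol into cholesterol. Msmo1, the methylsterol monooxygenase, was at 62.8, 84.9, 144 and 92.1 CPM with fibril-loaded neurons, 5.93, 37.1 and 72.9 CPM with untreated neurons, and 56.3, 84.3, 82.3 and 88.5 CPM in microglia alone. Library 1 with untreated neurons was the lowest of the 11, and the lowest library with fibril-loaded neurons lay below the highest with untreated neurons. Its log2 fold change was 1.31 with fibril-loaded against untreated neurons (SE 0.55, unadjusted p = 0.0277, edgeR adjusted p = 1) and -1.01 with untreated neurons against microglia alone (SE 0.55, unadjusted p = 0.0799, edgeR adjusted p = 0.544), and both comparisons use the same 3 untreated libraries. On leaving out each library in turn, the log2 fold change of Msmo1 lay between 0.82 and 2.16 between the co-cultures and between -1.86 and -0.50 with untreated neurons against microglia alone. Untreated library 1 gave the ends nearest 0 and untreated library 3 the far ends, and no such fit passed. Msmo1 lies on chromosome 8 from 64718139 to 64733792 (mm10, minus strand).

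Ebp, a sterol isomerase, was at 51.7, 48.9, 19.6 and 20.6 CPM with fibril-loaded neurons, 24.8, 29.3 and 42.7 CPM with untreated neurons, and 28.04, 50.5, 28.7 and 82.7 CPM in microglia alone, with overlapping groups. Cyp51, the lanosterol demethylase, averaged 33.8 ± 19.5 CPM with fibril-loaded neurons, 30.1 ± 17.8 CPM with untreated neurons and 48.6 ± 20.2 CPM in microglia alone, and its exons overlap those of Akap9 on the opposite strand. Nsdhl, which acts in removing methyl groups from the sterol ring, averaged 30.2 ± 24.5 CPM with fibril-loaded neurons, 17.2 ± 7.96 CPM with untreated neurons and 15.01 ± 15.4 CPM in microglia alone. Hsd17b7, a ketoreductase of the same steps, averaged 11.8 ± 4.98 CPM with fibril-loaded neurons, 3.78 ± 3.27 CPM with untreated neurons and 15.9 ± 10.1 CPM in microglia alone. Sc5d, a sterol desaturase, averaged 7.34 ± 4.81 CPM with fibril-loaded neurons, 8.93 ± 8.39 CPM with untreated neurons and 8.90 ± 6.90 CPM in microglia alone. Dhcr7, which makes cholesterol from 7-dehydrocholesterol, averaged 31.4 ± 18.8 CPM with fibril-loaded neurons, 21.9 ± 13.8 CPM with untreated neurons and 27.4 ± 9.39 CPM in microglia alone. None of these passed the test. Tm7sf2, a sterol reductase named after its values were seen, was at 0, 0, 9.01 and 3.32 CPM with fibril-loaded neurons and 8.16, 14.2 and 1.84 CPM with untreated neurons, against 0, 0.694, 0 and 0 CPM in microglia alone. It was higher in all 3 untreated libraries than in microglia alone without passing the edgeR test (adjusted p = 0.562).

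Fatty acid synthesis begins with Acly, which makes cytosolic acetyl-CoA from citrate. It was at 25.1, 80.8, 93.8 and 54.8 CPM with fibril-loaded neurons, 43.1, 93.1 and 85.3 CPM with untreated neurons, and 99.2, 71.9, 96.0 and 93.8 CPM in microglia alone. The groups overlapped, with library 1 of each co-culture the lowest of its group. Fasn, the fatty acid synthase, was at 28.3, 5.61, 16.99 and 26.2 CPM with fibril-loaded neurons, 0, 21.6 and 35.6 CPM with untreated neurons, and 43.1, 95.2, 37.8 and 55.4 CPM in microglia alone. All 7 co-culture libraries lay below all 4 of microglia alone, and the co-cultures overlapped each other. Of all genes tested, 2.92% were lower in this way beside fibril-loaded neurons and 5.45% beside untreated neurons. The share lower in both at once was not counted. The means were 19.3 ± 10.4 CPM with fibril-loaded neurons and 19.1 ± 17.9 CPM with untreated neurons, against 57.9 ± 26.0 CPM in microglia alone.

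Fasn did not pass the test, with a log2 fold change of -1.58 beside fibril-loaded neurons (SE 0.94, edgeR adjusted p = 0.812) and -1.60 beside untreated neurons (SE 1.04, edgeR adjusted p = 0.673), both against the same libraries of microglia alone. It lies on chromosome 11 from 120805846 to 120824547 (mm10, minus strand). Acaca, the acetyl-CoA carboxylase that supplies malonyl-CoA to Fasn, was at 22.6, 3.74, 35.6 and 0 CPM with fibril-loaded neurons, 0.121, 0 and 1.60 CPM with untreated neurons, and 19.8, 8.03, 9.03 and 30.4 CPM in microglia alone. The untreated libraries held 2, 0 and 27 counts of Acaca and lay below all 4 of microglia alone, while the libraries with fibril-loaded neurons spread across the range of both. Its log2 fold change was -4.84 with untreated neurons against microglia alone (SE 1.96, unadjusted p = 0.0224, edgeR adjusted p = 0.402, DESeq2 adjusted p = 0.0427). With fibril-loaded against untreated neurons it was 4.71 (SE 1.95, unadjusted p = 0.0248, edgeR adjusted p = 1), and both comparisons rest on the 3 untreated libraries. Leaving out each library in turn gave log2 fold changes of Acaca between -7.80 and -4.27 with untreated neurons against microglia alone and between 3.90 and 7.68 between the co-cultures, without a call. The largest in size in each came without untreated library 3, which held 27 of the counts. Acaca lies on chromosome 11 from 84129672 to 84401651 (mm10, plus strand). Of its 3′ windows 22.5% matched another gene, so the level of Acaca is uncertain.

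Summed over Acly, Acaca and Fasn, the level was 76.0, 90.2, 146 and 81.0 CPM with fibril-loaded neurons and 43.2, 115 and 122 CPM with untreated neurons, against 162, 175, 143 and 180 CPM in microglia alone. The sums with untreated neurons all lay below those of microglia alone, and with fibril-loaded neurons 1 library, number 3, lay within that range. The late sterol sum overlapped between all groups, averaging 249 ± 86.7 CPM with fibril-loaded neurons, 161 ± 64.1 CPM with untreated neurons and 241 ± 68.5 CPM in microglia alone. The sum of the desaturation and elongation genes averaged 253 ± 49.6 CPM with fibril-loaded neurons, 317 ± 129 CPM with untreated neurons and 485 ± 74.3 CPM in microglia alone. Without Scd2 it averaged 142 ± 50.4 CPM with fibril-loaded neurons, 170 ± 79.8 CPM with untreated neurons and 166 ± 29.5 CPM in microglia alone.

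The other desaturases and elongases did not pass the test. Elovl5, which elongates polyunsaturated fatty acids, was at 48.1, 93.2, 102 and 56.1 CPM with fibril-loaded neurons, 128, 56.5 and 124 CPM with untreated neurons, and 118, 66.6, 78.8 and 145 CPM in microglia alone, with overlapping groups. Fads1, a desaturase of polyunsaturated fatty acids, averaged 41.7 ± 25.2 CPM with fibril-loaded neurons, 39.8 ± 23.1 CPM with untreated neurons and 25.1 ± 8.70 CPM in microglia alone. Fads2, the desaturase at the head of the same pathway, averaged 21.4 ± 9.70 CPM with fibril-loaded neurons, 17.7 ± 19.0 CPM with untreated neurons and 31.1 ± 24.8 CPM in microglia alone. Scd1, the desaturase best known from liver and fat, was at 0, 0, 0 and 9.75 CPM with fibril-loaded neurons, 8.22, 0 and 8 CPM with untreated neurons, and 1.10, 10.4, 0 and 8.19 CPM in microglia alone. Elovl6, which elongates palmitate, averaged 1.45 ± 2.33 CPM with fibril-loaded neurons, 4.03 ± 6.98 CPM with untreated neurons and 2.70 ± 3.48 CPM in microglia alone, and 11.7% of its 3′ windows matched another gene. Libraries at 0 occurred in all 3 groups for Scd1, and its groups overlapped.

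In both co-culture groups, many sterol enzymes were highest in the same library. Most libraries named here are those that held the most such enzymes. That choice favours shares above those of all genes, and the excess was not tested. Of the 17 sterol enzymes tested, 11 were highest in library 3 of the fibril group (64.7%, against 24.2% of all genes tested) and 13 in library 3 of the untreated group (76.5%, against 30.7%). In microglia alone the highest values were more spread. There 8 were highest in library 4 (47.1%, against 24.8%), 5 in library 1 (29.4%, against 25.8%), 4 in library 2 (23.5%, against 24.7%) and 0 in library 3. Conversely, 8 of the 17 were lowest, with no tie, in library 1 of the fibril group (47.1%, against 28.9% of all genes) and 9 in library 1 of the untreated group (52.9%, against 31.2%). In microglia alone 5 were lowest in library 1 (29.4%, against 26.2%) and 6 in library 3 (35.3%, against 19.1%). Library 1 had the fewest genes detected in each group, at 9157 with fibril-loaded neurons, 9740 with untreated neurons and 9784 in microglia alone, and the part of detection in this pattern was not tested. Of the 9 fatty acid enzymes, 4 were highest in library 3 of the fibril group (44.4%, against 24.2% of all genes), 6 in library 3 of the untreated group (66.7%, against 30.7%) and 6 in library 2 of microglia alone (66.7%, against 24.7%). Library numbers follow the order of deposition and are not replicate numbers. By the serial numbers in the sample titles, libraries 1, 2 and 3 of the fibril group come directly after untreated libraries 1, 2 and 3. Whether this marks a shared preparation is not stated and was not tested.

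**Figure D4:**
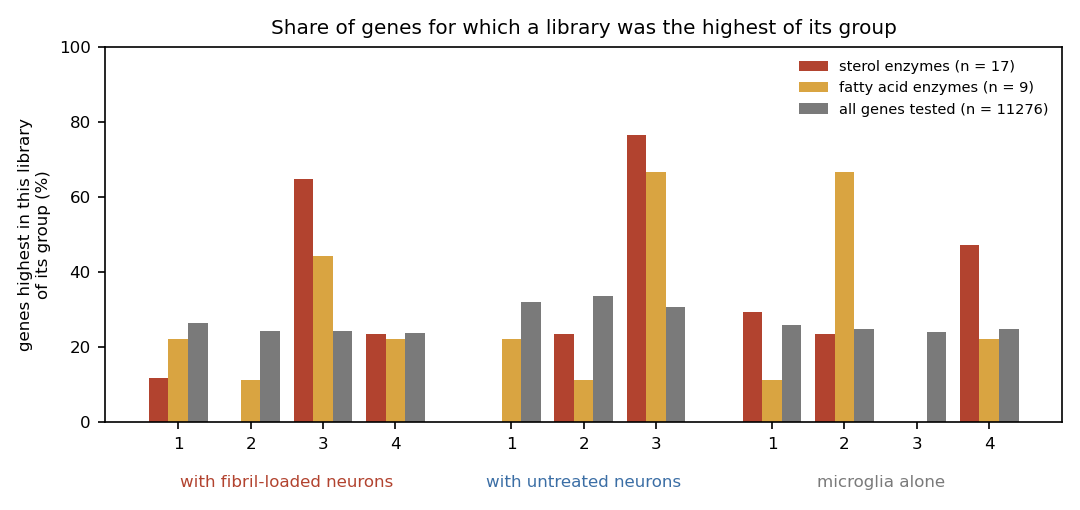
Share of genes (%) for which each library was the highest of its group, for the 17 sterol enzymes, the 9 fatty acid enzymes and all 11276 genes tested. The sterol enzymes peak in library 3 of both co-culture groups, at 64.7% with fibril-loaded and 76.5% with untreated neurons, above the share of all genes in those libraries.

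Around the members, 55 further genes of sterol and fatty acid handling were listed, of which 43 were tested. In edgeR 0 of the 43 were called in any comparison. At an unadjusted p below 0.05, 2 were higher and 6 lower with fibril-loaded neurons against microglia alone, 4 were higher and 4 lower with untreated neurons against microglia alone, and 1 was higher and 1 lower between the co-cultures. Over all genes tested, 4.25% were higher and 3.89% lower in this way in the first comparison, 4.66% and 5.67% in the second, and 2.64% and 1.3% between the co-cultures. DESeq2 called 1 higher and 1 lower in each comparison against microglia alone and 0 between the co-cultures, and limma called 0 in all 3. Cyb5r3, an electron donor to desaturases, averaged 436 ± 73.7 CPM with fibril-loaded neurons, 379 ± 19.2 CPM with untreated neurons and 359.7 ± 123 CPM in microglia alone. Npc2, which hands cholesterol out of lysosomes, averaged 1704 ± 306 CPM with fibril-loaded neurons, 1625 ± 157 CPM with untreated neurons and 1839 ± 487 CPM in microglia alone. Abca1, which exports cholesterol, averaged 607 ± 219.7 CPM with fibril-loaded and 984 ± 379 CPM with untreated neurons, against 533 ± 171 CPM in microglia alone. Ubxn4, a membrane protein of the endoplasmic reticulum, averaged 162 ± 48.4 CPM with fibril-loaded neurons, 199 ± 32.7 CPM with untreated neurons and 185 ± 19.0 CPM in microglia alone. The groups overlapped for these 4 genes.

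On the fatty acid side, Tecr, a reductase of fatty acid elongation, was at 87.3, 106, 97.0 and 82.2 CPM with fibril-loaded neurons, 152, 118 and 67.3 CPM with untreated neurons, and 229, 112, 126 and 266 CPM in microglia alone. Slc25a1, the carrier that brings citrate out of mitochondria for Acly, averaged 73.5 ± 37.0 CPM with fibril-loaded and 76.4 ± 29.4 CPM with untreated neurons, against 135 ± 41.8 CPM in microglia alone. Every library with fibril-loaded neurons lay below microglia alone for Tecr, and neither gene passed the test. The genes called by DESeq2 alone were chosen after their values were seen. Nr1h3, the liver X receptor α, was at 23.8, 7.12, 16.1 and 7.63 CPM with fibril-loaded neurons and 35.8, 6.18 and 8.95 CPM with untreated neurons, against 0, 0, 1.86 and 0 CPM in microglia alone. Its DESeq2 adjusted p was 0.0279 beside fibril-loaded and 0.0180 beside untreated neurons, and its edgeR adjusted p 0.448 beside fibril-loaded and 0.312 beside untreated neurons. Acsl3, an acyl-CoA synthetase of lipid droplets, was at 8.12, 15.4, 7.70 and 1.66 CPM with fibril-loaded neurons and 11.9, 2.87 and 27.9 CPM with untreated neurons, against 55.8, 36.3, 55.4 and 36.9 CPM in microglia alone. All 7 co-culture libraries lay above microglia alone for Nr1h3 and below it for Acsl3, a separation whose share over all genes was not counted. Beside fibril-loaded neurons the DESeq2 adjusted p of Acsl3 was 0.0439 and that of edgeR 0.303. Hsd17b12, a reductase of fatty acid elongation that also acts on steroids, was at 93.1, 80.0, 64.6 and 88.8 CPM with fibril-loaded neurons and 53.8, 78.2 and 59.1 CPM with untreated neurons, against 328, 95.4, 122 and 119 CPM in microglia alone, with a DESeq2 adjusted p of 0.0375 and an edgeR adjusted p of 0.162 beside untreated neurons.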

How the data were processed

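Per the labels' protocols, microglial RNA was isolated on micro columns and made into 3′ mRNA libraries (QuantSeq, FWD). Raw counts by gene symbol were deposited by the authors; above 6 digits, a count keeps 6 significant digits. STAR, Partek, DESeq2 and mm10 are named, with no version, in the submitters' processing notes. Strand use, duplicate removal and gene models are not given in the sources used here. The authors' deposited normalized table is treated as a score: tested on the values, between 99.02% and 100% of a library's values lay within 0.51 of the count divided by 1 size factor.

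Groups came from the treatment group of each sample, and libraries were numbered in the order of deposition. The main test was that of edgeR 4.0.16 in R 4.3.3 (TMM, filterByExpr, quasi-likelihood test, two-sided, all 11 libraries, group as the only term), with Benjamini-Hochberg adjustment over the 11276 genes tested and a threshold of 0.05. The adjusted p-values in the text come from this fit unless another tool is named. Intervals cover the spread between libraries. The highest correlation between 2 libraries on log2(CPM + 1) was 0.851, so none was counted as a repeat of another. Coordinates are from GENCODE M21 (GRCm38, the coordinates of mm10), and promoters from RefSeq on GRCm38.p6. Alternatives were RLE scaling, totals without Rn45s, no filter, a mean of at least 5 CPM, DESeq2 1.42.0, limma 3.58.1 on log2(score + 1), only the groups compared, and leaving out libraries. The code was tested on simulated data.

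Values in every library are given for members that passed the test, for the 3 with the smallest p in each comparison and for the 2 with the highest mean CPM in each role, and means for 2 further pathway genes per list. Library values of Idi1, Scd1, Tm7sf2, Tecr and the genes called by DESeq2 alone were added after they were seen. The members and lists were chosen with earlier results of these data known.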

Additional observations from a re-analysis of the deposited data

Results flagged for a closer look

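In 9 of the 64 sets of 4 libraries examined (32 members in 2 groups), 1 library stood far from the other 3. For normally distributed values chance gives about 1 in 20, but CPM of low genes are skewed: 11.3% of the 62 sets of tested members stood out in this way, against 12.9% of such sets over all genes tested, so the members' number is near the background. In 3 of the 9 the other 3 libraries were at 0, where any count stands out. With fibril-loaded neurons, library 3 was high for Lss (22.7 CPM, next 2.22), Dhcr7 (59.3 CPM, next 25.5) and Idi1 (1.78 CPM, the others 0) and low for Acat2 (2.44 CPM, next 16.8). In the same group library 1 was low for Hmgcs1 (6.04 CPM, next 72.7) and library 4 was high for Scd1 (9.75 CPM, the others 0). In microglia alone, library 2 was high for Idi1 (6.64 CPM, next 0.0836) and Tm7sf2 (0.694 CPM, the others 0), and library 1 was low for Fads1 (12.1 CPM, next 27.9). Scd2 and Fasn had no such library in either group of 4, and the group of 3 was not examined.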

How the results depend on the processing

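No result in the alternatives run changed direction while called. With fibril-loaded neurons against microglia alone, the 30 higher and 6 lower genes became 114 and 50 with no filter, 145 and 117 with DESeq2, 21 to 39 and 2 to 5 on leaving out single libraries, 7 higher with limma and 3 lower at a mean of at least 5 CPM. The 1 member called lower, Scd2, became 0 with limma and when the library with the fewest genes was dropped from each group (added after the data were seen), and 0 to 1 on leaving out single libraries. With untreated neurons against microglia alone, the 52 higher and 20 lower genes became 155 and 79 with no filter, 183 and 308 with DESeq2, 28 and 13 with only the groups compared, 21 and 8 without the libraries with the fewest genes, 25 to 62 and 4 to 21 on leaving out single libraries, 8 higher with limma and 12 lower at a mean of at least 5 CPM. The 0 members called lower became 2 with DESeq2. Between the co-cultures, the 0 higher genes became 5 with no filter, 139 with DESeq2, 9 with limma, 1 without the libraries with the fewest genes and 0 to 1 on leaving out single libraries, and the 0 lower genes became 31 with DESeq2, 2 with limma and 0 to 1 on leaving out single libraries. Members below 0 there numbered 10, and 8 to 16 on leaving out single libraries. The cause of these shifts was not tested. No paired analysis was run, because the labels give no replicate numbers. Serial numbers in the sample titles run in a regular step within each group, and a pairing by them was not tested. With a common biological coefficient of variation of 1.15, small changes of low members are not resolved here.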
